A study of Mus musculus with 34 samples.

Results

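Extracellular matrix and fibrosis genes were followed in mouse lung as a list of 41 genes, and each gene was read from the probe that its RefSeq accession named, taking the brightest probe in the lung channel where a gene had several. The arrays carried probes for 40 of the 41, out of 20659 named genes, and Col12a1 had none. All 40 were bright enough to be tested among 29316 units (named genes and unnamed accessions). The members comprised 5 fibril-forming collagens, 8 other collagens, 5 elastic fibre proteins, 3 crosslinking enzymes, 3 small leucine-rich proteoglycans, 7 adhesive and matricellular proteins, 4 matrix proteases, 3 protease inhibitors and 2 growth factor ligands. The lungs came from female C57BL/6 mice aged 5 to 7 weeks, which had received carbon nanotubes once into the trachea, suspended in 40 µl, and were collected at day 28. The nanotubes were of 3 kinds, which carry code names (NRCWE-043, NRCWE-044, NRCWE-045). The 34 arrays, 1 lung RNA each, fell into 7 groups: 5 controls at 0 µg, NRCWE-043 at 18 µg (5 arrays) and 54 µg (5), NRCWE-044 at 18 µg (6) and 54 µg (5), and NRCWE-045 at 18 µg (3) and 54 µg (5). Per the labels a group has 5 mice. The labels do not state what the control mice were given, and 1 control array, replicate 3, carries NRCWE-043 at 0 µg in its title. Lung RNA was drawn from random sections of the frozen organ, so an array samples whatever structures its section held, and p-values measure the spread between arrays, in which mouse and section cannot be told apart.

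The extracellular matrix of the lung holds collagen fibrils that carry tension, elastic fibres of elastin and fibrillin that let the airspaces recoil, and basement membranes under the epithelium and the capillaries. Fibroblasts make most of it, lysyl oxidases crosslink collagen and elastin, matrix metalloproteases cut it, and tissue inhibitors of metalloproteases hold those enzymes back. In pulmonary fibrosis TGF-beta drives fibroblasts to lay down fibrillar collagen, fibronectin, tenascin and periostin, which is why these transcripts are read after exposure to inhaled fibres.

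In the lung channel (Cy5), 50.8 to 68.5% of probes per array cleared the scanner software's test for a signal well above background, and no spot was saturated (0 in either channel). Of the 40 members, 35 were well above background on all 34 arrays. The dim members were Mmp12, well above background on 11 arrays, Tnc on 19, Col8a1 on 21, Col15a1 on 25 and Mmp9 on 26, and their values there are close to what the array can resolve. Within groups, arrays correlated at 0.908 to 0.97 over all probes. There were 6 slides, each with its own scan day, and 4 of the slides held a control. Markers of alveolar type 2 cells (Sftpc), club cells (Scgb1a1), type 1 cells (Ager) and endothelium (Cldn5) were well above background on all 34 arrays. A score of 4 fat cell markers, in log2 units with the control mean at 0, stood at 2.86 in replicate 1 of NRCWE-044 at 54 µg, 2.25 in replicate 1 of NRCWE-045 at 18 µg and 2.33 in replicate 4 of NRCWE-045 at 54 µg, and below 1 on the other 31. A score of 4 liver markers stood at 4.01 in replicate 2 of NRCWE-045 at 18 µg and 1.56 in replicate 1 of NRCWE-045 at 54 µg, and below 1 on the other 32.

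Against the controls, no matrix gene changed past the threshold at either dose of any material. All values below are log2 ratios of lung RNA to a reference RNA from 11 mouse cell lines, so a negative level says that the transcript was lower in lung than in those cells, and a change is a difference between group means of that ratio, with its standard error. With limma and Benjamini-Hochberg adjustment over all 29316 units, 0 of 40 members were called at 54 µg or at 18 µg of any of the materials, where 0% of all units were called in each of the 6 comparisons. The smallest adjusted p of a member was 0.569 at 54 µg of NRCWE-043 and 0.558 at 18 µg of NRCWE-045. In bulk lung RNA, fewer cells of a type and less RNA per cell cannot be told apart, and this holds for every gene below. In simulated arrays, 53% of genes given a log2 change of 0.5 were recovered in the comparison of NRCWE-043 at 54 µg with control. Of those given 1, 94.5% were, so changes of 0.5 and below are often missed at this size. The simulated noise was independent between arrays, without a slide effect, and 200 genes were changed, so rates in these data can differ. The members also spread more over arrays (median SD 0.313) than all units do (0.179).

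At an unadjusted p under 0.05, 1 member was higher and 3 were lower at 54 µg of NRCWE-043, where 2.52 and 3.11% of all units passed in those directions. For NRCWE-044 at 54 µg, 0 were higher (3.24% of all units) and 5 lower (2.6%), and for NRCWE-045 at 54 µg 0 were higher (2.02%) and 1 lower (1.91%). At 18 µg, 4 were higher (1.65%) and 2 lower (2.7%) with NRCWE-043. With NRCWE-044 at 18 µg, 0 were higher (1.62%) and 0 lower (1.52%), and with NRCWE-045, 1 was higher (5.04%) and 1 lower (2.88%). The median change of the 40 members lay between -0.07 and 0.06 in the 6 comparisons. With NRCWE-043 it was 0.04 at 54 µg, with 26 of 40 above 0 beside 46.8% of all units, and 0.06 at 18 µg, with 26 of 40 beside 46.4%. With NRCWE-044 it was -0.03 (18 of 40 beside 50.1%) and -0.07 (14 of 40 beside 50.4%), and with NRCWE-045 -0.03 (17 of 40 beside 50.5%) and -0.03 (20 of 40 beside 50.7%). Averaged over the materials it was -0.05 at 54 µg (17 of 40 beside 49.3%) and -0.02 at 18 µg (17 of 40 beside 50.3%). The 6 comparisons share the same 5 control arrays.

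**Figure D1:**
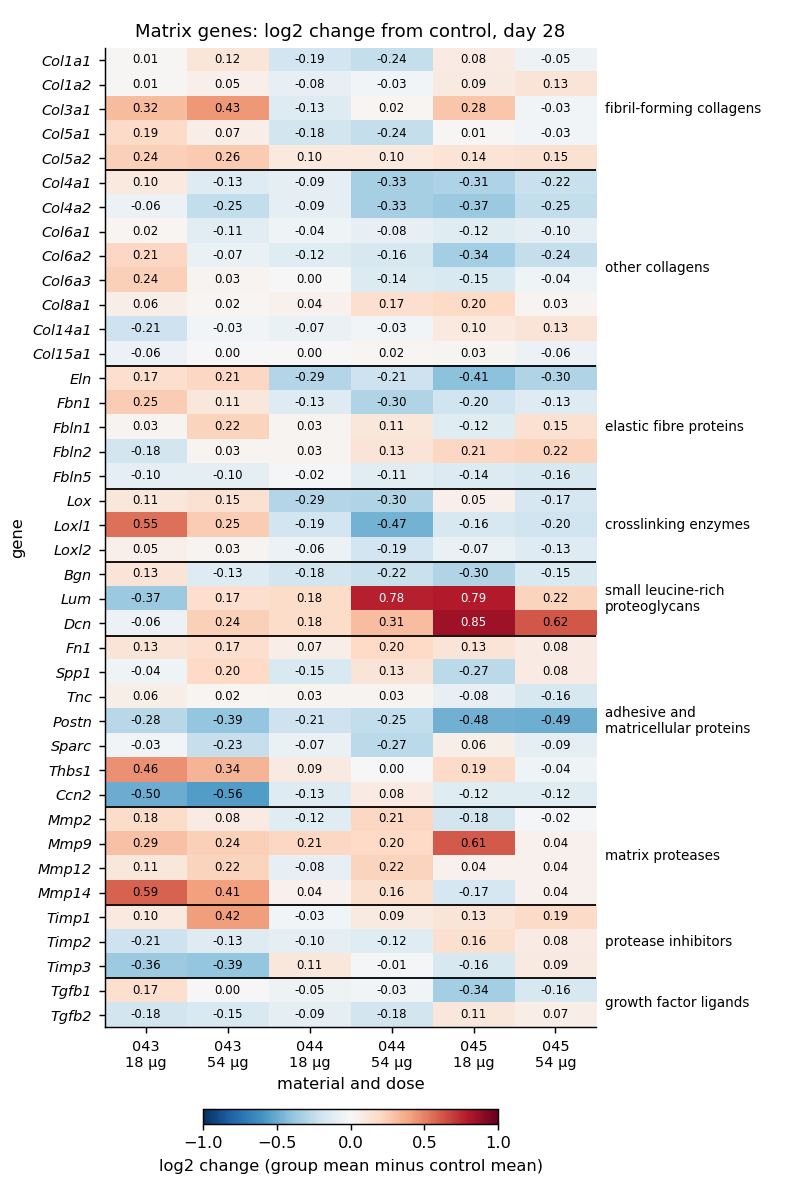
Log2 change against control of each of the 40 members (rows, ordered by role) for each material and dose (columns), as a colour from blue (lower) to red (higher). Colours stand out in the rows of Lum, Dcn and Mmp9, and in Loxl1, Mmp14 and Ccn2, whose colours differ between NRCWE-043 and the other materials.

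The fibril-forming collagens, which make the tensile fibres that accumulate in scar, stayed near the control level. Averaged over the materials at 54 µg, 3 of the 5 lay above 0, with a median of 0.05. Col1a1, the main chain of type I collagen, read -2.05, -2.20, -2.98, -2.25 and -2.40 on the 5 controls and -3.34 to -2.04 (median -2.33) on the 15 arrays at 54 µg. The treated range, of 15 arrays beside 5, covered the control range on both sides. Its mean difference was -0.06 ± 0.17 at 54 µg, with a 95% confidence interval of -0.40 to 0.28, and -0.04 at 18 µg (interval -0.38 to 0.31), so an average rise past 0.28 at 54 µg lies outside the interval.

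Col3a1, the partner collagen of compliant tissue, read -0.34, -0.78, -1.79, -0.79 and -0.74 on the controls and -1.38 to -0.18 (median -0.73) at 54 µg. The control spread came from replicate 3, the control titled NRCWE-043 at 0 µg, which was lower than every array at 54 µg. The difference was 0.14 ± 0.20 at 54 µg (interval -0.28 to 0.55) and 0.15 at 18 µg, and it stood at -0.09 and -0.07 without that control array. By group, the mean of the 5 fibril collagens relative to control was 0.19 ± 0.08 (SD, n = 5) at 54 µg of NRCWE-043 and 0.15 ± 0.16 (n = 5) at 18 µg. It was -0.08 ± 0.23 (n = 5) and -0.10 ± 0.33 (n = 6) for NRCWE-044 at 54 and 18 µg, and 0.03 ± 0.14 (n = 5) and 0.12 ± 0.24 (n = 3) for NRCWE-045. These ranges overlapped the control range of -0.45 to 0.21 in each group.

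Col5a1, a fibril-forming collagen that sets fibril diameter, read -2.51, -2.34, -2.35, -2.05 and -2.30 on the controls. At 18 µg of NRCWE-044 it read -2.38, -2.50, -2.35, -2.38, -2.73 and -2.57. These lay in the lower part of the control range or below it, and the difference was -0.18, or -0.11 without control replicate 4.

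Col1a2, the other chain of type I collagen, was 0.05 at 54 µg and 0.00 at 18 µg over the materials, and Col5a2, a chain of type V collagen, 0.17 and 0.16.

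Of the other collagens, 2 of 8 lay above 0 at 54 µg over the materials, with a median of -0.07. Col4a2, a chain of the basement membrane network of type IV collagen, was the farthest from 0. Its controls read 1.77, 2.13, 2.19, 2.15 and 1.96, and the 15 arrays at 54 µg 0.93 to 2.24 (median 1.82). All but 1 of the treated arrays lay in or below the control range, and the difference was -0.28 ± 0.15. Over the other settings tried it ran from -0.34 to -0.18. The 5 arrays of 1 slide, which held no control, read 0.93 to 1.49, and the 29 on the other slides 1.40 to 2.24. Slide took 65.8% of the variance of Col4a2. Col4a1, its partner chain, was -0.23 at 54 µg and -0.10 at 18 µg. The 3 chains of type VI collagen, which forms beaded filaments around cells, were at -0.10 (Col6a1), -0.16 (Col6a2) and -0.05 (Col6a3) at 54 µg. On the slide of low Col4a2 values Col6a2 read -1.56 to -1.21, and on the other slides -1.11 to -0.02. At 54 µg Col14a1, a fibril-associated collagen, was at 0.02 and Col15a1, a basement membrane collagen, at -0.01. Col8a1, a network-forming collagen of vessels, was at 0.07.

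The elastic fibre genes were also close to control when averaged over the materials, with 2 of 5 above 0 and a median of -0.10 at 54 µg. Eln, which encodes elastin, read 1.60, 1.74, 1.25, 0.76 and 2.00 on the controls, 0.74 to 2.08 (median 1.29) at 54 µg and 0.75 to 2.16 (median 1.32) at 18 µg. Controls and treated arrays covered nearly the same range. The difference was -0.10 ± 0.20 at 54 µg (interval -0.51 to 0.31) and -0.18 at 18 µg. At 18 µg of NRCWE-044 the 6 arrays read 1.32, 1.33, 0.97, 1.53, 1.13 and 0.81, all inside the control range, with a difference of -0.29, which was -0.46 without control replicate 4 and -0.15 without control replicate 5.

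Fbln5, a fibulin that tethers elastin to cells, read 2.44, 2.02, 2.01, 2.35 and 2.42 on the controls and 1.95, 2.12, 2.33, 1.68 and 2.34 at 54 µg of NRCWE-045. The 2 groups overlapped and differed by -0.16, and by -0.06 without replicate 4 of NRCWE-045. Fbln1 and Fbln2, fibulins of the elastic fibre and basement membrane, were 0.16 and 0.13 at 54 µg over the materials and -0.02 and 0.02 at 18 µg. Fbn1, whose product fibrillin-1 forms the microfibril scaffold on which elastin is deposited, read 0.05, 0.10, -0.05, 0.45 and 0.20 on the controls and -0.22, 0.06, -0.36, -0.42 and 0.17 at 54 µg of NRCWE-044. There, 3 of the 5 arrays lay below every control, and the difference was -0.30 ± 0.12 (adjusted p = 0.734 by limma).

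The crosslinking enzymes gave medians of -0.11 at 54 µg (0 of 3 above 0) and -0.02 at 18 µg over the materials. Loxl1, the lysyl oxidase-like enzyme that acts on elastic fibres, read -0.44, -0.34, -0.38, 0.33 and -0.16 on the controls. At 18 µg of NRCWE-043 it read 0.04, 0.52, 0.32, 0.23 and 0.66, and at 54 µg of NRCWE-044 -0.80, -0.67, -0.40, -1.12 and -0.34. The NRCWE-043 arrays lay above 4 of the 5 controls, and the NRCWE-044 arrays in the lower control range or beneath it. The differences from control were 0.55 ± 0.19 and -0.47 ± 0.19 (adjusted p = 0.98 and 0.742 by limma). Lox, the founding lysyl oxidase, read -3.25, -3.50, -2.71, -2.78 and -3.05 on the controls and -3.73, -2.89, -3.31, -3.49, -3.10 and -3.58 at 18 µg of NRCWE-044, overlapping groups with a difference of -0.29. Another Lox probe, also well above background on 34 arrays, gave -0.04 in that comparison. Loxl2, a further member of this family, was -0.10 at 54 µg.

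The proteoglycans Dcn (decorin) and Lum (lumican) coat collagen fibrils and limit their thickness, and they gave the largest point estimates of any members against control, with the widest errors. Dcn read 0.54, 1.02, 0.15, 0.45 and 0.29 on the controls, 1.13, 0.58, 0.79, 2.34 and 0.71 at 54 µg of NRCWE-045 and 2.10, 0.92 and 0.99 at 18 µg. In each of the NRCWE-045 groups 1 array stood more than 1 log2 unit above the rest, and the other arrays lay inside the control range or just above it. The differences were 0.62 at 54 µg and 0.85 ± 0.40 at 18 µg, and 0.31 and 0.47 without those arrays (replicate 4 and replicate 1). Lum read 0.55 to 1.06 (median 0.87) on the controls and 3.45 and 3.48 on the arrays of NRCWE-044 (replicate 1) and NRCWE-045 (replicate 4) at 54 µg that had the high fat cell score.

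These proteoglycan values moved with markers of fat cells and of other tissues that a section can hold. The 3 arrays with a fat cell score above 1 had Lum at 3.45, 2.03 and 3.48 and Dcn at 2.33, 2.10 and 2.34, while on the other 31 Lum ran from 0.08 to 1.72 and Dcn from -0.34 to 1.36. Of the 4 fat cell markers, Cidec was well above background on 34 arrays, Adipoq on 27, Plin1 on 22 and Lep on 9. The 2 arrays with Lum at 3.45 and 3.48 also had heart muscle scores of 2.35 and 2.49 (controls -1.19 to 0.97), while the third had -0.33. On the 3 arrays, in the order of the Lum values, the smooth muscle and myofibroblast score was 0.74, 0.44 and 0.57 (controls -0.23 to 0.19), the adventitial fibroblast score 0.70, 0.38 and 0.51 (controls -0.18 to 0.18) and the cartilage score 0.62, 0.81 and 0.41 (controls -0.16 to 0.19). Arrays of lower fat cell score came near these. Replicate 2 of NRCWE-045 at 18 µg had 0.5, 0.34 and 0.4 in these scores, and replicate 2 of NRCWE-044 at 54 µg a cartilage score of 0.59. Of the cartilage markers, Col2a1 was well above background on 30 arrays, Acan on 27, Comp on 10, Matn1 on 5 and Cnmd on 4. Fibroblasts of adipose tissue and of the adventitia make decorin and lumican, and the part of any of these tissues in the values was not tested. Bgn, which encodes the related proteoglycan biglycan, was -0.17 at 54 µg and -0.12 at 18 µg over the materials.

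**Figure D2:**
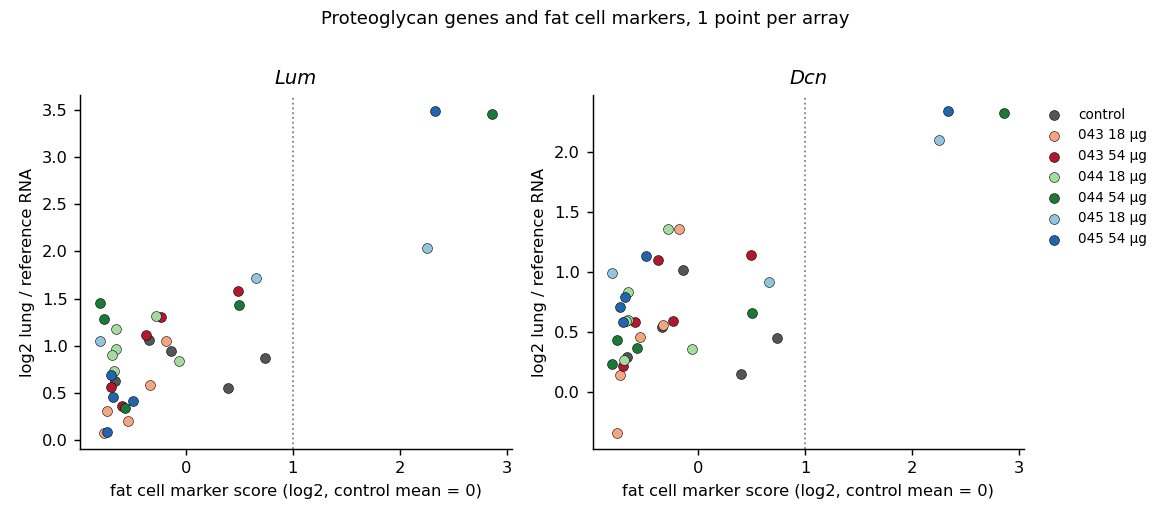
Log2 ratio of Lum (left) and Dcn (right) on each of the 34 arrays against the fat cell marker score of the same array (log2, control mean at 0), coloured by group, with a dotted line at a score of 1. The 3 arrays to the right of the line have Lum at 2.03 to 3.48 and Dcn at 2.10 to 2.34, above the other 31 arrays in both panels.

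Among the adhesive and matricellular proteins, Postn was the member farthest from control at both doses. Postn encodes periostin, which fibroblasts secrete under TGF-beta and which helps assemble collagen. The controls read 3.41, 3.38, 2.88, 3.07 and 3.09. At 54 µg NRCWE-043 read 2.99, 2.48, 2.86, 3.16 and 2.42, NRCWE-044 2.95, 2.86, 2.48, 3.02 and 3.31, and NRCWE-045 2.83, 2.64, 3.01, 2.19 and 2.74. At 54 µg, 9 of the 15 arrays lay below every control, and at 18 µg 7 of 14 did.

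The Postn difference was -0.37 ± 0.15 at 54 µg (95% interval -0.68 to -0.06, adjusted p = 0.806 by limma) and -0.32 ± 0.15 at 18 µg (adjusted p = 0.999), so it was not called. In this fit, without slide, Postn was the only member past an unadjusted p of 0.05 in the average at either dose. Of all units, 2.76% were lower at 54 µg and 2.07% at 18 µg. In the other direction 0 members passed (2.86 and 1.84% of all units). With slide as a block in limma, 7 of 40 members passed in either direction at 54 µg beside 10.4% of all units. At 18 µg 0 did, beside 6.28%. Each of the 6 single groups had a Postn estimate below 0, from -0.21 at 18 µg of NRCWE-044 to -0.49 at 54 µg of NRCWE-045, all against the same controls.

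Sparc, a collagen-binding protein of fibroblasts and endothelium, read 2.07, 2.26, 1.92, 1.93 and 2.19 on the controls and 1.64, 1.64, 1.77, 1.89 and 2.10 at 54 µg of NRCWE-044. All but 1 of those NRCWE-044 arrays lay below every control. The difference there was -0.27, and over the materials at 54 µg it was -0.20 ± 0.10, with 10 of 15 arrays below every control. At 18 µg it was -0.02. Another Sparc probe gave -0.31 at 54 µg and -0.15 at 18 µg. Its slope on dose was -0.22 ± 0.08 per 54 µg (adjusted p = 0.719 by limma).

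Fn1, which encodes fibronectin, the provisional matrix of wound repair, read -2.0, -2.21, -2.18, -2.07 and -2.02 on the controls and -2.56 to -1.01 (median -2.02) at 54 µg. The treated median lay inside the control range, while the highest arrays at 54 µg (-1.01, -1.32, -1.45 and -1.69) stood above it and others (-2.56, -2.48 and -2.34) below it. The arrays at -1.01, -1.45 and -1.69 were on the slide of low Col4a2 values, which held no control and read -1.99 to -1.01. Slide took 40.9% of the variance of Fn1. The difference was 0.15 ± 0.16 at 54 µg (interval -0.17 to 0.47) and 0.11 at 18 µg, and at 54 µg it was 0.08 without replicate 4 of NRCWE-043 and 0.05 with slide as a block.

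Spp1, encoding osteopontin, a secreted phosphoprotein made by macrophages in injured lung, read -3.96, -3.68, -3.94, -3.93 and -4.24 on the controls and -4.47 to -3.0 (median -3.88) at 54 µg. The range of the 15 treated arrays went past that of the 5 controls in both directions, and a range grows with the number of arrays. It was 0.13 ± 0.18 (interval -0.23 to 0.49) at 54 µg and -0.15 at 18 µg, and leaving out single arrays gave 0.06 to 0.20 and -0.23 to -0.09. Thbs1, thrombospondin 1, which can release active TGF-beta from its latent form, was 0.10 at 54 µg and 0.25 at 18 µg, and Tnc, tenascin C, a glycoprotein of healing wounds, -0.04 and 0.00.

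Ccn2, the connective tissue growth factor that TGF-beta and stretch induce in fibroblasts, was the only member whose groups did not overlap in any of the 6 comparisons with control. The controls read 1.42, 1.19, 1.30, 1.74 and 1.20, and the 5 arrays at 54 µg of NRCWE-043 0.84, 0.63, 0.90, 1.13 and 0.54. Every NRCWE-043 array at that dose lay below every control, a pattern that 0.501% of all units showed in that direction. The difference was -0.56 ± 0.18 (adjusted p = 0.569 by limma).

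At 18 µg of NRCWE-043, Ccn2 read 1.20, 0.75, 0.43, 0.70 and 1.26. There 3 arrays lay below every control and 2 reached its lower end, a difference of -0.50. With the other materials it was 0.08 (NRCWE-044) and -0.12 (NRCWE-045) at 54 µg, and -0.13 and -0.12 at 18 µg. Over the 3 materials it was -0.20 ± 0.14 at 54 µg (interval -0.49 to 0.09) and -0.25 ± 0.15 at 18 µg, or -0.11 and -0.16 without control replicate 4.

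All 4 matrix proteases lay above 0 at 54 µg over the materials, with a median of 0.16, and none was called. Mmp12, the elastase of alveolar macrophages, read -0.10, -0.38, -0.17, -0.29 and -0.26 on the controls and -0.47 to 0.40 (median -0.14) at 54 µg. The 2 groups shared the lower range, and 7 of the 15 treated arrays were above every control. The difference was 0.16 ± 0.10 at 54 µg (interval -0.05 to 0.37) and 0.02 at 18 µg, for a transcript well above background on 11 of 34 arrays. At 54 µg it was 0.88 with the scanner software's processed signals and 0.07 with the mean over all its probes.

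Mmp14, a membrane-bound collagenase that also activates Mmp2, read -1.41, -1.20, -0.93, -0.87 and -1.03 on the controls and -1.01, -0.40, -0.35, -0.39 and -0.36 at 18 µg of NRCWE-043. All but replicate 1 of those treated arrays were above every control, and the difference was 0.59 ± 0.21. Replicate 1 was on a slide that held 2 of the controls, and the 8 arrays there read -1.53 to -0.70. Replicate 5 was on a slide without a control, whose arrays read -1.02 to -0.16. Slide took 67.1% of the variance of Mmp14. Mmp9, a gelatinase of neutrophils and macrophages, read -2.27, -2.46, -1.14, -1.75 and -1.74 on the controls and -0.44, -1.29 and -2.06 at 18 µg of NRCWE-045. The high value came from replicate 1, and the difference was 0.61, or 0.20 without that array, which also had a high fat cell score and a neutrophil marker score of 1.78 (controls -0.22 to 0.14). The part of neutrophils in it was not tested. Mmp2, the gelatinase of fibroblasts, was 0.09 at 54 µg and -0.04 at 18 µg.

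The inhibitors gave estimates of both signs. Timp1, the inducible inhibitor that rises in fibrotic lung, read -2.61, -2.78, -3.11, -2.82 and -2.68 on the controls and -1.56, -2.67, -2.30, -2.70 and -2.65 at 54 µg of NRCWE-043. Replicate 1 stood far above the rest, and the other arrays were in the upper control range or above it. The difference was 0.42 ± 0.19 there, or 0.22 without replicate 1, and 0.23 ± 0.15 over the 3 materials (interval -0.08 to 0.54), and 0.07 at 18 µg.

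Timp3, the inhibitor that binds to the matrix itself, read 2.14, 2.68, 2.48, 2.77 and 2.41 on the controls, 2.21, 1.84, 2.16, 2.43 and 1.88 at 54 µg of NRCWE-043, and 2.42, 2.33, 1.95, 1.84 and 2.12 at 18 µg. At each dose the NRCWE-043 arrays lay in the lower control range or below it, with differences of -0.39 and -0.36 ± 0.16. Timp2, the constitutive inhibitor, was -0.06 at 54 µg and -0.05 at 18 µg.

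Of the ligands, Tgfb1, the main profibrotic cytokine, read -0.20, 0.11, -0.03, 0.12 and -0.06 on the controls and -1.12 to 0.69 (median -0.01) at 54 µg. The low values all came from 1 slide, which held no control: its 5 arrays, of all 3 materials and both doses, read -1.12 to -0.77, and the 29 arrays on the other slides -0.34 to 0.69. Slide took 83% of the variance of Tgfb1 over the 34 arrays. The difference was -0.06 ± 0.21 at 54 µg (interval -0.49 to 0.37) and -0.07 at 18 µg, and its sign turned with slide as a block (0.11 and 0.08). Tgfb2, another TGF-beta isoform, was -0.09 and -0.05.

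Dose made no called difference to any member. By limma, 0 of 40 members were called between 54 and 18 µg of any material, or averaged over the materials, and 0% of all units were called in each. At an unadjusted p under 0.05, Mmp12 was higher at 54 than at 18 µg of NRCWE-044 (0.30, 1 of 40 beside 2.89% of all units, with 0 lower beside 2.35%). For NRCWE-043 0 were higher (1.61%) and 0 lower (1.52%), and for NRCWE-045 0 were higher (0.798%) and 0 lower (1.56%). In the average, Spp1 was higher (0.29, 1 of 40 beside 1.85%) and Sparc lower (-0.18, 1 of 40 beside 1.87%). Over all 7 groups at once, 0 members and 0.0443% of all units were called, and the smallest adjusted p among the members was 0.102, that of Loxl1, and 7 of 40 members (17.5%) passed an unadjusted p of 0.05 beside 7.02% of all units. Without replicate 4 at 54 µg of NRCWE-043, or without replicate 1 at 18 µg of NRCWE-045, 1 member was called in that test. The mean score of all 40 members, with the control mean at 0, was 0 ± 0.08 (SD) in the controls, 0.05 ± 0.04 at 54 µg of NRCWE-043, -0.03 ± 0.08 for NRCWE-044 and -0.02 ± 0.08 for NRCWE-045, so these ranges overlapped.

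**Figure D3:**
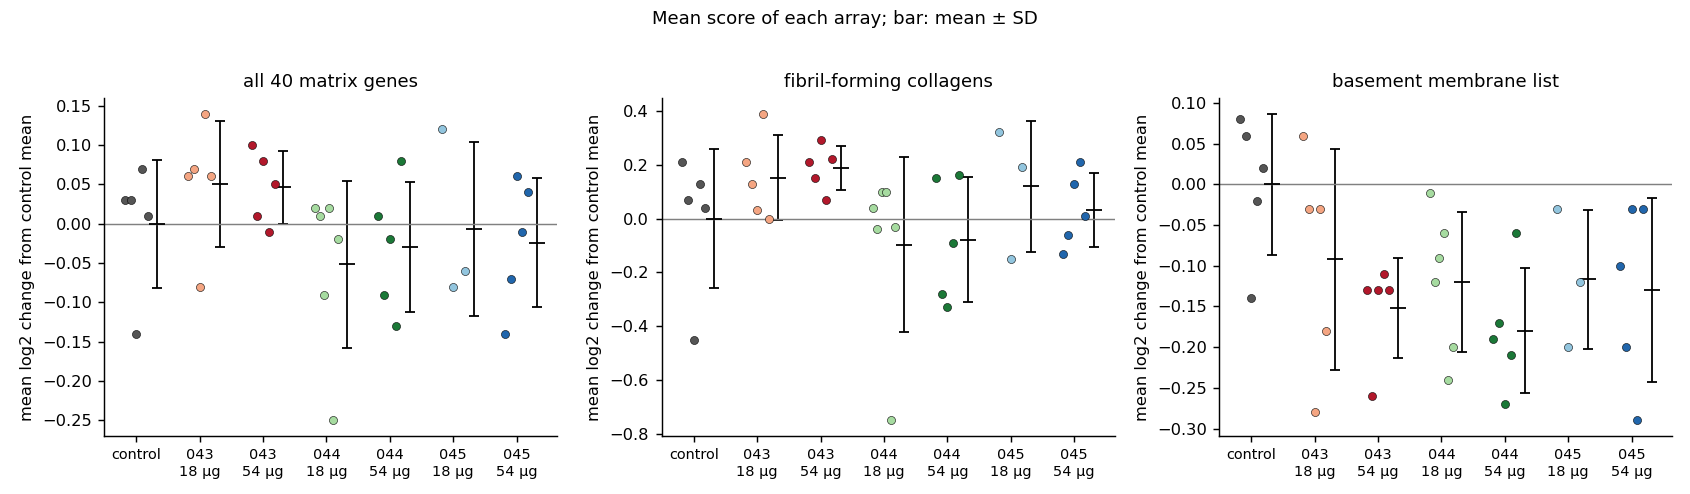
Mean score per array (log2, control mean at 0), by material and dose, with the bar at the group mean ± SD. The panels show all 40 members, the fibril-forming collagens among them, and the basement membrane list, whose genes lie outside the members. The score of all 40 members stays between -0.25 and 0.14 on the 34 arrays, and treated and control points overlap.

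NRCWE-043 differed from the other materials in 4 matrix genes. Across both doses, the 10 NRCWE-043 arrays were set against the mean of the NRCWE-044 and NRCWE-045 groups (19 arrays), a comparison that does not involve the controls. By limma, 4 of 40 members (10%) were called, where 1.29% of all units were called (377 of 29316). Loxl1 and Fbn1, which both serve the elastic fibre, were higher with NRCWE-043. Ccn2 and Timp3 were lower. At an unadjusted p under 0.05, 11 of 40 members were higher beside 3.39% of all units, and 3 were lower beside 7.68%.

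Loxl1 ran from -0.66 to 0.66 (median 0.25) on the NRCWE-043 arrays and from -1.12 to 0.18 (median -0.41) on the others. Of the 10 NRCWE-043 arrays 7 lay above all 19 others, and replicate 4 at 54 µg (-0.66) lay among the lowest. The difference was 0.66 ± 0.12 (95% interval 0.42 to 0.89), a 1.58-fold higher level (adjusted p = 0.00468 by limma with Benjamini-Hochberg adjustment). Another Loxl1 probe gave 0.52.

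Fbn1 ran from 0.13 to 0.64 (median 0.32) with NRCWE-043 and from -0.42 to 0.33 (median -0.01) with the others. No NRCWE-043 array was below 0.13, and 5 of the 10 lay above all 19 others. The difference was 0.37 ± 0.07 (interval 0.22 to 0.52), 1.29-fold (adjusted p = 0.0114 by limma).

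Ccn2 ran from 0.43 to 1.26 (median 0.80) with NRCWE-043 and from 0.79 to 1.75 (median 1.30) with the others, so that 5 of the 10 lay below all 19. The difference was -0.46 ± 0.11 (interval -0.68 to -0.23), a level 0.728 times that of the others (adjusted p = 0.0321 by limma). Timp3 ran from 1.84 to 2.43 (median 2.14) and from 2.05 to 3.06 (median 2.51), with 4 of the 10 below all 19. The difference was -0.38 ± 0.10 (interval -0.59 to -0.18), 0.766-fold (adjusted p = 0.0491 by limma), the weakest of the 4 calls.

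**Figure D4:**
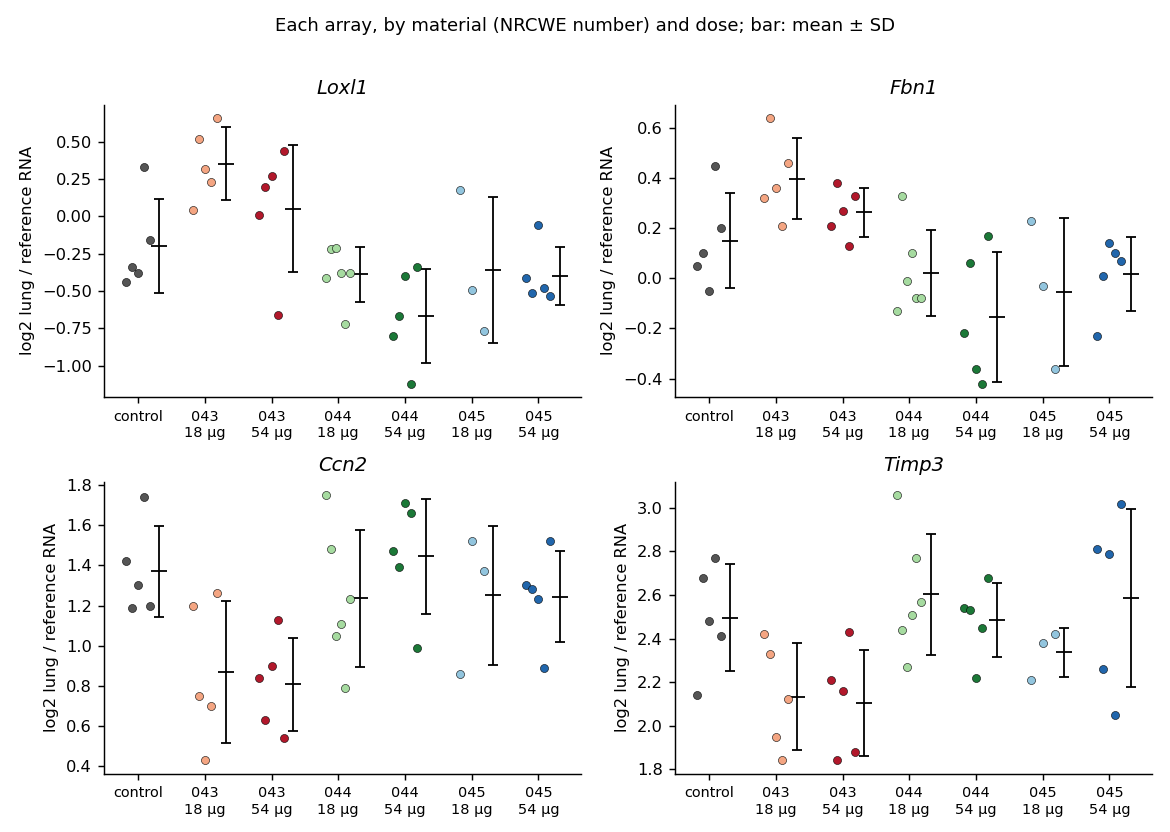
Log2 ratio of Loxl1, Fbn1, Ccn2 and Timp3 on every array, by material and dose, with the bar at the group mean ± SD. Both NRCWE-043 groups sit above the NRCWE-044 and NRCWE-045 groups in Loxl1 and Fbn1 and below them in Ccn2 and Timp3, with some arrays overlapping in each gene, and the controls lie between or with the latter groups.

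Set beside the controls, the Loxl1 estimates were 0.55 and 0.25 at 18 and 54 µg of NRCWE-043, -0.19 and -0.47 with NRCWE-044, and -0.16 and -0.20 with NRCWE-045. The Loxl1 difference was thus made of estimates on both sides of the control mean, none of which was called by itself. Fbn1 had the same arrangement, with 0.25 and 0.11, -0.13 and -0.30, and -0.20 and -0.13. For Ccn2 the NRCWE-043 estimates (-0.50 and -0.56) were the larger ones, and those of the other materials lay between -0.13 and 0.08. Timp3 was alike, with -0.36 and -0.39 for NRCWE-043 and -0.16 to 0.11 for the others.

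The differences held at each dose in direction. Loxl1 was higher with NRCWE-043 than with NRCWE-044 by 0.74 at 18 µg and 0.72 at 54 µg, and than with NRCWE-045 by 0.72 and 0.45. For Fbn1 these were 0.37, 0.42, 0.45 and 0.25, for Ccn2 -0.37, -0.64, -0.39 and -0.44, and for Timp3 -0.47, -0.38, -0.20 and -0.48. Over the 6 pairs of materials at the same dose, 0 of 40 members were called by limma, with the p-values adjusted over all units within each pair. All units were called at 0.0102% for NRCWE-043 against NRCWE-044 and 0.43% for NRCWE-043 against NRCWE-045 at 18 µg, at 0% and 0.00341% for the same pairs at 54 µg, and at 0% for NRCWE-044 against NRCWE-045 at either dose. Without replicate 1 of NRCWE-045 at 18 µg, 2 members were called for NRCWE-043 against NRCWE-045 at that dose. At an unadjusted p under 0.05, NRCWE-043 against NRCWE-044 had 6 members higher (1.72% of all units) and 2 lower (3.84%) at 18 µg, and 4 higher (2.07%) and 2 lower (2.72%) at 54 µg.

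NRCWE-043 against NRCWE-045 had 7 members higher (3.46%) and 4 lower (7.26%) at 18 µg, and 3 higher (1.9%) and 2 lower (3.2%) at 54 µg. NRCWE-044 against NRCWE-045 had 0 higher (2.03%) and 0 lower (4.13%) at 18 µg, and 0 higher (1.32%) and 1 lower (2.28%) at 54 µg, the last being Tgfb2 (-0.26). Groups that did not overlap were few. Between NRCWE-043 and NRCWE-044, NRCWE-043 was wholly above for Lox at 54 µg (0.45; 1 of 40 beside 0.321% of all units) and for Col5a1 and Loxl1 at 18 µg (2 of 40 beside 0.177%). Between NRCWE-043 and NRCWE-045 it was wholly above for Lox and Thbs1 at 54 µg (2 of 40 beside 0.365%) and for Mmp14, Col6a2 and Col6a3 at 18 µg (3 of 40 beside 1.96%), and wholly below for Lum at 18 µg (1 of 40 beside 3.69%).

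The interaction of dose with material had 0 members called and 0 past an unadjusted p of 0.05 in each pair of materials, where 2.8% of all units passed for NRCWE-043 against NRCWE-044, 2.96% for NRCWE-043 against NRCWE-045 and 2.87% for NRCWE-044 against NRCWE-045.

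Around these 4 genes, other matrix members lay in the same direction without passing the threshold. Eln, the substrate that Loxl1 acts on, ran from 0.75 to 2.16 (median 1.80) with NRCWE-043 and from 0.74 to 1.76 (median 1.15) with the others, with 6 of 10 above all 19. It differed by 0.49 ± 0.15 (adjusted p = 0.116 by limma). Mmp14 was 0.48 (0.0596), Col5a1 0.24 (0.0887), Lox 0.31 (0.174), Col6a3 0.22 (0.172), Thbs1 0.34 (0.204) and Col3a1 0.34 (0.401), each with its limma adjusted p in brackets. Lum was lower by -0.59 (0.424), and Fn1 (0.03), Spp1 (0.13), Mmp12 (0.10) and Col1a1 (0.17) were near 0 beside their errors.

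By role, all 5 fibril collagens (median 0.17) and all 3 crosslinking enzymes (median 0.31) lay above 0 in this comparison, as did 4 of 5 elastic fibre genes and 3 of 4 proteases, and 1 of 3 proteoglycans (median -0.40) and 1 of 3 inhibitors did. The members' median was 0.10, with 28 of 40 above 0 beside 46.6% of all units.

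Slide is a batch that holds several groups, and on 5 of the 6 slides NRCWE-043 arrays could be set against the others directly. Within slides, Fbn1 was higher with NRCWE-043 on 5 of 5 (0.30 to 0.47), Eln on 5 of 5 (0.26 to 1.06), Mmp14 on 5 of 5 (0.07 to 0.61), Lox on 5 of 5 (0.09 to 0.53), Col3a1 on 5 of 5 (0.13 to 0.98) and Loxl1 on 4 of 5 (-0.02 to 1.1). Ccn2 was lower on 5 of 5 (-0.82 to -0.11) and Timp3 on 4 of 5 (-0.67 to 0.13). In all, 5 of 40 members were higher on every slide beside 3.75% of all units, and 1 was lower on every slide beside 7.07%. With slide as a block in limma, Loxl1 (0.59, adjusted p = 0.00678), Fbn1 (0.37, 0.0106), Ccn2 (-0.47, 0.0376), Mmp14 (0.37, 0.00849) and Eln (0.60, 0.0191) were called, and Timp3 (-0.37, 0.0673) was not. In that fit 584 of all units were called.

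**Figure D5:**
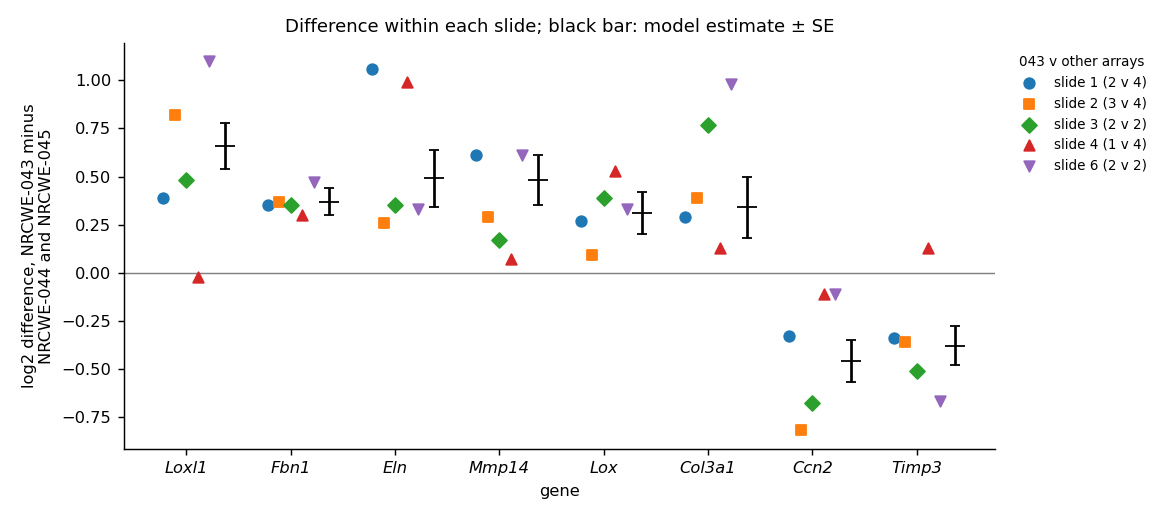
Difference between NRCWE-043 arrays and NRCWE-044 and NRCWE-045 arrays within each of 5 slides (points) beside the fit over all arrays (black bar, estimate ± SE), in log2 units, for 8 members. The points of Fbn1, Eln, Mmp14, Lox and Col3a1 lie above 0 on all 5 slides and those of Ccn2 below 0 on all 5, while 1 slide each for Loxl1 and Timp3 lies across 0.

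Loxl1 and Fbn1 were called in all 41 other settings tried, with adjusted p of 0.000539 to 0.0174 and 0.00363 to 0.0339. Ccn2 was called in 30 of 41 (0.0125 to 0.0989) and Timp3 in 13 of 41 (0.0238 to 0.126). Leaving out single arrays left 2 to 6 members called, and 2 without replicate 1, 2, 3 or 5 at 54 µg or replicate 2 at 18 µg of NRCWE-043, replicate 2 or 3 at 18 µg of NRCWE-045, or replicate 5 at 54 µg of NRCWE-045. Without the 3 arrays of high fat cell score the same 4 were called, where 312 of all units were. Without the 2 arrays of high liver score Loxl1 (0.0149) and Fbn1 (0.0278) were called by limma, while Ccn2 (0.0754) and Timp3 (0.098) were not. In that run 191 of all units were called, beside 377 in the main fit.

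Clock genes moved with this comparison. Of 9 genes of the Per and Dbp phase, 1 lay above 0, the median was -0.80 and 5 were called, namely Per2 (-0.69), Per3 (-0.80), Nr1d2 (-1.27), Tef (-1.01) and Hlf (-0.87). Their mean score ran from -1.51 to 0.03 on the NRCWE-043 arrays, from -0.81 to 0.64 on the others and from -0.82 to 0.80 on the controls. Arntl, the clock activator of the opposite phase, was higher by 1.45 ± 0.29 (adjusted p = 0.0124 by limma), and Cry1 was well above background on 0 arrays. The score of the Arntl list, which also held Clock and Npas2, ran from -0.1 to 0.97 on the NRCWE-043 arrays. That score ran from -0.65 to 2.48 on the others, highest in replicate 6 of NRCWE-044 at 18 µg, and from -0.61 to 0.63 on the controls. The labels used here give no hour of collection, and the part of the clock phase in the matrix differences was not tested.

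Liver markers lay below 0 with NRCWE-043 in 4 of 4 (median -0.74), with scores of -0.37 to 0.07 against -0.31 to 4.01 on the others, and Apoa2 among them was called (-0.88). Markers of alveolar fibroblasts were above 0 in 1 of 5 (median -0.06), of smooth muscle and myofibroblasts in 0 of 6 (median -0.12), of endothelium in 2 of 5 (-0.02) and of heart muscle in 5 of 5 (0.30), with 0 called in each. The part of these in the differences was not tested.

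Promoter sequences were taken from RefSeq's table (build GRCm38.p6), which matched 26 of the 41 members. They are shown for the 2 called members it held and for Mmp14, which was called with slide as a block, as the 250 bases before the start, 5′ to 3′ on the gene's strand, with matches on either strand in capitals. The capitals mark the GC box, spelled GGGCGG. In Mmp14 they also mark a box that binds NF-Y in many promoters, spelled CCAAT. The Fbn1 stretch is chr2:125506439-125506688 (minus strand), that of Timp3 chr10:86300162-86300411 (plus strand) and that of Mmp14 chr14:54431348-54431597 (plus strand).
Fbn1: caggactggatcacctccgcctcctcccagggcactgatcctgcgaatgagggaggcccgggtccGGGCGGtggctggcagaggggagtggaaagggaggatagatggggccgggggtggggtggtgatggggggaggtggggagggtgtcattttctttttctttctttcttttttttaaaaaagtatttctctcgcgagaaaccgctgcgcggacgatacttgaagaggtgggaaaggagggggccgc
Timp3: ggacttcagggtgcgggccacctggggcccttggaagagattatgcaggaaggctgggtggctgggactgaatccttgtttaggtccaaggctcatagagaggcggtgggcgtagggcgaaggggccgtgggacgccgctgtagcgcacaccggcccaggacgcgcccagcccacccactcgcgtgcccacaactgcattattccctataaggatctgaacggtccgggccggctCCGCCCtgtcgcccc
Mmp14: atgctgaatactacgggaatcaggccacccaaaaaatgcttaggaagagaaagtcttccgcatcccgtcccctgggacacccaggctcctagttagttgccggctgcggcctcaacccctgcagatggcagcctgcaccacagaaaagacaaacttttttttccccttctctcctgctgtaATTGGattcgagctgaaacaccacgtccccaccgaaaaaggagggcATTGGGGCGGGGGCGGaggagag
Fbn1 held 1 GC box at 185 bases before its start and Timp3 1 on the opposite strand at 15 bases, while Mmp14 held the NF-Y box on the opposite strand at 69 and 23 bases and GC boxes at 19 and 13 bases, in a run where neighbouring matches share letters. The 3 stretches are GC-rich, at 59.2% for Fbn1, 65.6% for Timp3 and 55.2% for Mmp14.

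Both strands of the 250 bases before the start were searched in all 32851 promoters of the table and in the 26 matched members. The GC box above was held by 15 of the 26, beside 32.7% of all promoters. The NF-Y box above was held by 9 of the 26, beside 33.8%. The TATA box, spelled TATAAA, was held by 4 of the 26 members, beside 12.4% of promoters. The site of the stress-responsive factor AP-1, here spelled TGANTCA, was held by 1 of the 26 members, beside 6.75% of promoters. The site of TEAD factors, which carry mechanical signals to the genome and were searched for as GGAATG, was held by 3 of the 26, beside 12.6%. A match describes the letters and not binding.

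Members that share a molecule or a fibril were read against each other over the 34 arrays as 5 pairs, with earlier results known, with permutation p-values from 100000 resamples adjusted over the 5. The resampling shuffled arrays freely across slides and groups, so shifts that a whole slide shares also count toward these p-values, which can be too small. No p-value was computed with group and slide removed. Col4a1 and Col4a2, whose proteins join in 1 heterotrimer and whose RefSeq starts lie 21 bases apart on opposite strands, correlated at r = 0.906 (rho = 0.90, both at the smallest p that the permutations can give, 1e-05; adjusted 1.67e-05). Col6a1 and Col6a2 correlated at r = 0.836 (rho = 0.754, permutation p = 1e-05 for r) and Col1a1 and Col1a2 at r = 0.681 (rho = 0.656, permutation p = 6e-05 and 7e-05; adjusted 7.5e-05). Without the 2 arrays farthest from the median of the x-axis gene these were 0.858, 0.77 and 0.719, and with group and slide removed 0.913, 0.778 and 0.677. Within the 2 slides of 8 arrays they were 0.927 and 0.818, 0.687 and 0.783, and 0.518 and 0.886.

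Lum and Dcn correlated at r = 0.79 (rho = 0.567, permutation p = 1e-05 and 0.0005). Without replicate 1 of NRCWE-044 and replicate 4 of NRCWE-045 at 54 µg, both of high fat cell score, r was 0.575. With group and slide removed it was 0.857, and within the 2 slides of 8 arrays 0.812 and 0.918. Col3a1 and Col5a2, which copolymerise with other chains in fibrils, correlated at r = 0.465 (rho = 0.353, permutation p = 0.00598 and 0.0409). That relation rested on control replicate 3 and replicate 5 of NRCWE-044 at 18 µg, since r was 0.171 without them. With group and slide removed it was 0.505, and within those slides 0.155 and 0.71.

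The wider pathway was read from 6 lists of genes outside the members, averaged over the materials. By limma, 0 genes of any list were called at 54 or 18 µg. At an unadjusted p under 0.05, 2.86% of all units were higher and 2.76% lower at 54 µg (1.84 and 2.07% at 18 µg), to be read beside each count below. Of the 18 basement membrane genes (laminins, nidogens, perlecan and further type IV collagens), 1 lay above 0 at 54 µg and 6 at 18 µg, with medians of -0.16 and -0.12, and at an unadjusted p under 0.05 0 were higher and 1 lower at each dose. Their mean score ran from -0.14 to 0.08 in the controls and, at 54 µg, from -0.26 to -0.11 with NRCWE-043, -0.27 to -0.06 with NRCWE-044 and -0.29 to -0.03 with NRCWE-045. The lowest of the list was Col4a3, a type IV chain of the alveolar basement membrane, at -0.61 ± 0.26 at 18 µg.

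Of 22 TGF-beta signalling and target genes, 9 lay above 0 at 54 µg (median -0.04; 2 higher and 0 lower at an unadjusted p under 0.05). The farthest from 0 was Nrros, a macrophage protein that anchors latent TGF-beta, at 0.39 ± 0.12 at 18 µg (adjusted p = 0.999 by limma) and 0.25 at 54 µg. Of 24 collagen processing and crosslinking genes 7 lay above 0 at 54 µg and 15 at 18 µg (medians -0.04 and 0.02; 0 higher and 1 lower at 54 µg), led by Pcolce2, a procollagen C-proteinase enhancer, at -0.27 ± 0.11. Of 17 other proteases and inhibitors 8 lay above 0 at 54 µg (2 higher and 2 lower), led by Ctsk, the collagen-cutting cathepsin K, at 0.63 ± 0.19 (adjusted p = 0.593). Of 22 other collagens and matrix proteins 7 lay above 0 (0 higher and 1 lower), led by Col13a1, a transmembrane collagen, at -0.39 ± 0.13 (0.627). Of 12 matrix receptors 5 did (1 higher and 0 lower), led by Itga2, a collagen-binding integrin chain, at -0.30 ± 0.12 at 18 µg.

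In the comparison of NRCWE-043 with the other materials, 4 genes of these lists were called by limma. Tgfb3, a TGF-beta isoform, was 0.25 (adjusted p = 0.0164), Serpinh1, the collagen chaperone HSP47, 0.43 (0.0227), Col5a3, a chain of type V collagen, 0.54 (0.0106), and Tnxb, tenascin X of the collagen network, -0.39 (0.00804). They came from lists of 22, 24, 22 and again that last 22 tested genes, beside 1.29% of all units.

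Markers of the cells that make or hold this matrix lay on either side of the controls, without a call. All 5 alveolar fibroblast markers lay below 0 at both doses (0 of 5 above 0; medians -0.26 at 54 µg and -0.38 at 18 µg), with Tcf21 at -0.71 ± 0.19 and Itga8 at -0.62 ± 0.21 at 54 µg. The 5 endothelial markers (medians -0.33 and -0.30) and the 5 pericyte markers (-0.15 and -0.17) lay below 0 as well. Adventitial fibroblast markers were divided, with 3 of 5 above 0 at 54 µg and at 18 µg (medians 0.06 and 0.02), and so were those of smooth muscle and myofibroblasts, with 2 of 6 and 3 of 6 (-0.05 and -0.02). Lipid-laden macrophage markers lay above 0 in 4 of 5 at 54 µg (median 0.40, with Trem2 at 0.86 and Gpnmb at 0.73) and in 3 of 5 at 18 µg (0.10). Heart muscle markers lay above 0 in 0 of 5 at either dose (medians -0.78 and -1.44). Their part in the lower Postn, Sparc and Col4a2 values was not tested.

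Slide accounted for more of the members' spread than group did. Of the variance over the 34 arrays, slide took a median of 38.8% over the members (34.5% over all units) and group 20.9% (16.1%). Each share was computed for that factor alone, so the shares overlap and do not add up. They were not corrected for the number of groups or slides, and labels without any effect would also take a share. Loxl1 had the highest share by group among the members, at 57.1%, and Col8a1, a dim gene, the highest by slide, at 88.5%. For Mmp14 slide took 67.1% and group 35.6%, shares that overlap.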

How the data were processed

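The authors scanned 34 two-colour arrays and, per the file headers, extracted the spots with Agilent Feature Extraction 11.0.1.1. The deposited scanner files hold, per the file headers, the median intensity of each spot and of its local background in both channels, processed intensities, and flags (0 or 1) that mark saturation, irregular shape and a signal well above background. Lung RNA carried Cy5 and the reference Cy3 on every array, per the labels, so dye and source were never swapped. The deposited series table of log2 ratios served as an alternative; how the authors made it is not given in the sources used here.

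Median spot intensities were corrected with limma's normexp (offset 50) and loess within arrays (limma 3.58.1, statmod 1.5.0, R 4.3.3), with control and irregular spots at weight 0, and repeated probes were averaged. The plan named mean signals, and the deposited files hold medians. Probes were named through RefSeq accessions, which named 27235 of 55681 probes. A unit was tested where at least 3 arrays had it well above background in Cy5, with 7 group means, empirical Bayes and Benjamini-Hochberg adjustment at 0.05. The mean of the materials is the unweighted mean of their group means. Confidence intervals are at 95% and unadjusted for the number of genes. Depth on arrays is signal over background, and the number of arrays limits the precision. The method was tested on simulated data with 200 changed genes among 29196.

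Values by array were given for the 3 members with the largest moderated t in each comparison with control, for Col1a1, Col3a1, Fn1, Eln, Timp1, Spp1, Mmp12, Tgfb1 and Ccn2, and for the members called between materials. Of each pathway list the gene with the largest moderated t in the means over materials was named, and the called genes. The members and lists were chosen with earlier results of these data known, and the clock lists and the runs without arrays of high fat or liver score were added after the data were seen. The alternatives were processed signals, the series table, no background correction, between-array scaling, other filters and probe rules, slide as a fixed or random block, array weights, the compared groups alone, and leaving out each array. Replicate numbers follow the order of deposit and only name arrays.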

Additional observations from a re-analysis of the deposited data

Results flagged for a closer look

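In 132 sets of values (a gene in a group of 4 to 6 arrays), 8 had 1 array far from the rest of its group, and chance alone gives about 1 in 20 such sets. In NRCWE-043 arrays, Mmp14 was lowest in replicate 1 at 18 µg (-1.01, the next -0.40), Col5a1 lowest in replicate 4 at 54 µg (-2.77, the next -2.22), Tgfb1 lowest in that same array (-0.95, the next -0.01), and Col1a1 highest in replicate 1 at 54 µg (-2.04, the next -2.28). For Tgfb1, all 5 arrays on the slide of that array, from groups of each material, read -1.12 to -0.77. For Mmp14, the 8 arrays on the slide of replicate 1 at 18 µg, 2 of them controls, read -1.53 to -0.70. In replicate 5 of NRCWE-044 at 18 µg, Col1a1 (-3.37, the next -2.55) and Col3a1 (-2.20, the next -0.92) were both lowest. Dcn was highest in replicate 1 of NRCWE-044 at 54 µg (2.33, the next 0.66), an array with a high fat cell score. Loxl1 was highest in replicate 3 of NRCWE-045 at 54 µg (-0.06, the next -0.41).

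The difference between NRCWE-043 and the other materials over both doses passed the limma test for Fbn1 (0.37), Loxl1 (0.66), Ccn2 (-0.46) and Timp3 (-0.38), in log2 units.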

How the results depend on the processing

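Of the alternative values of counts, medians and mean scores, 1160 stayed near the main value and 17 did not. A count had to be equal or within 1.5 times. A median or mean score had to lie within 0.08, the pooled SD of the members' score within groups. Direction was not part of this rule, and medians near 0 could turn sign inside it. The members' median between 54 and 18 µg of NRCWE-043 ran from -0.03 to 0.03 without single arrays. The members' median for NRCWE-045 at 18 µg was -0.13 with the scanner software's processed signals. Between NRCWE-043 and the other materials, 7 members were called with slide as a random block, where 757 of all units were. Without the arrays of high liver score 2 members and 191 of all units were called, beside 4 and 377 in the main fit. Leaving out single arrays gave 2 to 6 members. Over the 7 groups 1 was called with the random block and 1 with array weights (0 to 1 without single arrays). For NRCWE-043 against NRCWE-045 at 18 µg, 1 member was called without the arrays of high fat score, with 315 of all units. Leaving out single arrays there gave 0 to 2 members.

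Signs turned for estimates smaller than their standard error. With slide as a fixed block, Eln was 0.02 at 54 µg and 0.03 at 18 µg, Tgfb1 0.11 and 0.08, Col1a1 0.06 at 18 µg and Mmp12 -0.04 at 18 µg; with the random block Tgfb1 was 0.05 and 0.03, Col1a1 0.03 and Mmp12 -0.02. With processed signals Eln was 0.06 at 54 µg, without the high-fat arrays Tgfb1 0.02 at 54 µg, and without the high-liver arrays Col1a1 0.02 at 18 µg. Between NRCWE-043 and the others Fn1 was -0.06 with array weights and -0.01 without the high-liver arrays. Leaving out single arrays gave, at 54 µg, -0.28 to 0.03 for Eln, -0.12 to 0.02 for Tgfb1, -0.21 to 0.02 for Col1a1 and -0.09 to 0.28 for Col3a1. At 18 µg it gave -0.16 to 0.01 for Tgfb1, -0.19 to 0.05 for Col1a1, -0.07 to 0.29 for Col3a1, -0.01 to 0.12 for Timp1 and -0.02 to 0.06 for Mmp12, and for Fn1 between materials -0.08 to 0.10. The causes were not tested.

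No paired analysis was possible because the sample numbers in the titles run over the whole series and pair no arrays. The plan's other settings were all run; those without the high-fat or high-liver arrays were added after seeing the data. Signal over background limits Mmp12, Tnc, Col8a1, Col15a1 and Mmp9 most.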
